A study of Homo sapiens with 6 samples.

Results

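The mRNAs of 33 genes of sterol synthesis, sterol transport and their control by SREBP2 were followed in REH cells treated with ML141. The genes were taken as a list of symbols from the deposited count table, which has 26485 entries. The list was chosen with earlier results of these data known. All 33 genes had an entry and enough counts to be tested, among 11454 genes tested in all. The list does not hold every enzyme of the route, and enzymes outside it are not analysed here. REH cells are an established line of human B-precursor acute lymphoblastic leukemia, and ML141 is a compound that inhibits the GTPase CDC42. The groups were REH cells given DMSO, the solvent, and REH cells given 25 µM ML141, each for 24 h and each with 3 libraries, which the series' text describes as coming from 3 independent experiments. Both groups were cells of the 1 line in serum-containing medium at 1 dose and 1 time, and serum is a source of lipoprotein cholesterol.

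Cells build cholesterol from acetyl-CoA. The mevalonate steps join acetyl-CoA units and shape them into farnesyl diphosphate, which is then either condensed to squalene and closed into the sterol rings or used for geranylgeranyl groups, ubiquinone, dolichol and protein prenylation. SREBP2, encoded by SREBF2, is the membrane-bound transcription factor that switches these genes on: when membrane sterol is low, SCAP escorts it from the endoplasmic reticulum to the Golgi, the site-1 and site-2 proteases cut it free, and when sterol is ample the INSIG proteins hold SCAP back. Proliferating leukemia cells need the pathway for new membrane.

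Genes past the test were those with an adjusted p under 0.05 by edgeR's quasi-likelihood test after Benjamini-Hochberg adjustment across the 11454 genes. Of the 33 sterol genes 20 fell, 4 rose and 9 were not past the test, with a median log2 fold change of -0.82 against 0.017 over all genes tested. Over all genes tested 54.4% changed, 27.7% being lower and 26.7% higher. Because the list was chosen with earlier results known, its difference from these shares is a description and not a test. Of the 20 synthesis enzymes on the list 16 fell and 1 rose, with a median of -1.24, so that the middle enzyme stood at 42.3% of its DMSO level. Falls of more than 2-fold were found in 15 of the 33 genes, 13 of them synthesis enzymes, against 6.24% of all genes tested. The other falls of that size were in INSIG1 and STARD4. All ML141 libraries lay below all DMSO libraries in 20 sterol genes (30.7% of all genes tested) and above them in 5 (30.5%).

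With upper-quartile factors 7 sterol genes were higher and 20 lower, and with library totals 9 and 19, where these scalings moved the median of all genes tested by 0.10 and 0.17 on the log2 scale and the share of higher genes among all changed genes from 49.1% to 59.5% and 66.1%. Counts are relative to the library total, so a change in total RNA per cell is not seen, and in bulk RNA fewer expressing cells cannot be told apart from less RNA per cell. The libraries held 8284299 to 12308039 counts, 1 count stood for 0.0754 to 0.130 CPM (counts over the TMM-scaled library size), and no sterol gene had fewer than 28 counts in any library. Against a minimum fold change of 1.5 the calls of MVD, GGPS1, LBR, SC5D, SREBF2, SCAP and MYLIP were lost (edgeR adjusted p from 0.1201 to 1). Markers of B precursors summed to 7299 to 7990 CPM in DMSO and 9175 to 9530 CPM with ML141. Of 10 tested markers 8 were higher and 1 lower, against 26.7% and 27.7% of all genes tested. Markers of T cells and erythroid cells summed to at most 0.344 and 0.104 CPM in any library, each with 3 genes at 0 in all libraries, and those of fibroblasts or epithelium to at most 2.07 CPM. Myeloid markers summed to 49.7 to 51.1 CPM in DMSO and 33.6 to 37.1 CPM with ML141. Of 4 tested myeloid markers 1 was lower, near the 27.7% over all genes tested. Whether the marker levels had a part in the sterol gene changes was not tested.

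**Figure D1:**
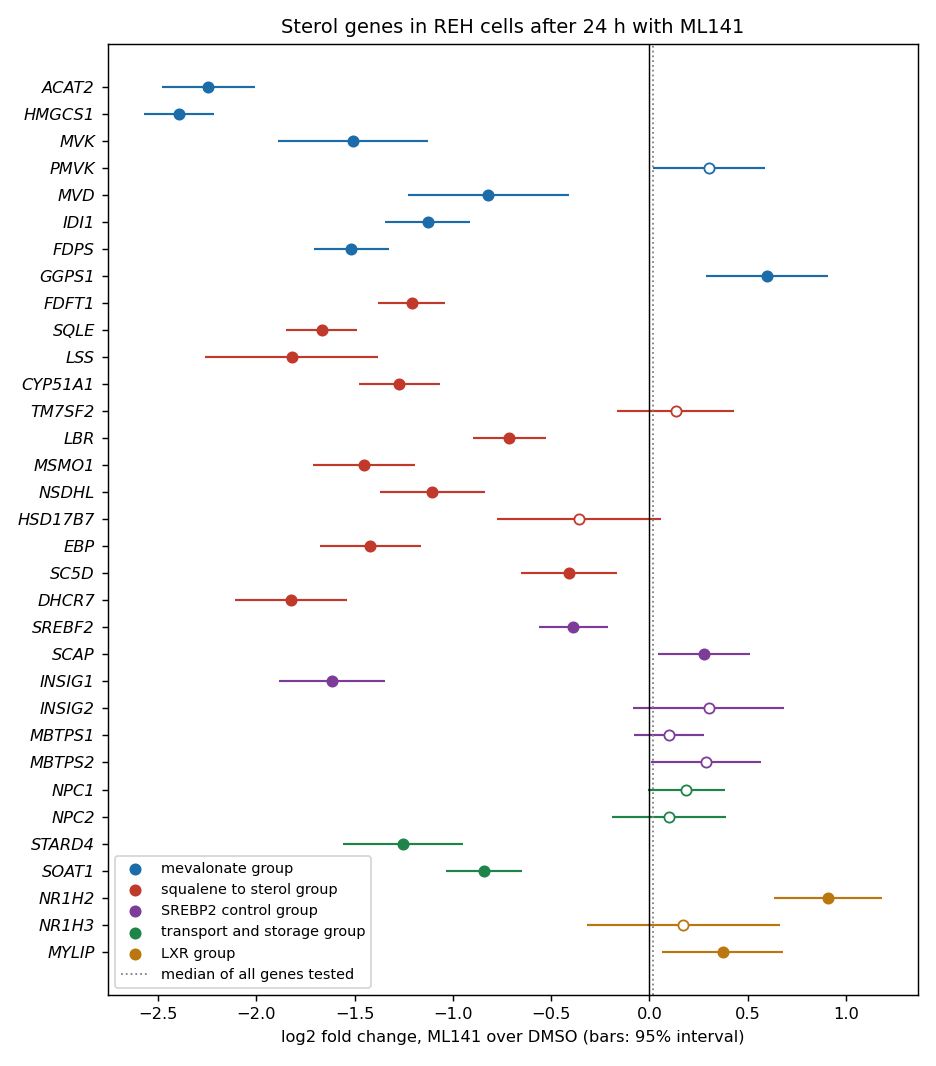
Log2 fold change of each sterol gene, ML141 over DMSO (horizontal axis), in order of role from the first enzyme down, with 95% intervals as bars. Filled points passed the test at an adjusted p of 0.05 and open points did not; the synthesis enzymes sit on the left from HMGCS1 at -2.39 to SC5D at -0.41, apart from PMVK, GGPS1, TM7SF2 and HSD17B7, and NR1H2 is the highest at 0.91.

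Among the genes that control SREBP2, INSIG1 and SREBF2 fell, SCAP rose slightly and the remaining 3 were not past the test. Over all genes tested 27.7% were lower and 26.7% higher. With the replicate number as a block, INSIG2 and MBTPS2 rose as well. INSIG1 encodes an anchor that holds SCAP in the endoplasmic reticulum and is itself an SREBP target. It lies on chromosome 7 from 155297776 to 155310235 (GRCh38, plus strand). INSIG1 measured 369.9, 323 and 384 CPM in DMSO replicates 1, 2 and 3 and 127, 93.4 and 132 CPM in ML141 replicates 1, 2 and 3. Each ML141 library held well under the lowest DMSO library, and replicate 2 was the lowest library in both groups. The gene fell 3.07-fold (log2 -1.62, SE 0.124, edgeR adjusted p = 1.07e-06), and 177 of all genes tested fell further.

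INSIG2, the paralogous anchor, was not past the test without the block. INSIG2 measured 33.3, 25.1 and 21.4 CPM in DMSO and 40.2, 28.3 and 29.5 CPM with ML141, in the order of replicates 1, 2 and 3. The groups overlapped, and replicate 1 was the highest library in each. Its log2 fold change was 0.30 (95% interval -0.081 to 0.69, edgeR adjusted p = 0.165), and it passed the test with library totals (log2 0.47, adjusted p = 0.0329) and without DMSO replicate 1 (log2 0.49, adjusted p = 0.0409). With the replicate number as a block INSIG2 also passed (log2 0.30, adjusted p = 0.0253), the differences between same-numbered libraries being 0.27, 0.17 and 0.46. Per kilobase of exon, INSIG1 was 9.34, 10.8 and 15.1 times as abundant as INSIG2 in DMSO replicates 1, 2 and 3 and 2.65, 2.78 and 3.76 times with ML141. The ratio was lower in 3 of 3 ML141 libraries than in any DMSO library, a log2 change of -1.93. The 2-sided exact permutation p was 0.1 (n = 3 per group), also after adjustment over the 3 ratios computed. It is the smallest that 3 against 3 can give. INSIG1 alone already separated the groups, so this p-value is a description and no conclusion is drawn from it.

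SREBF2, on chromosome 22 from 41833079 to 41907308 (plus strand), encodes the transcription factor itself and is one of its own targets. SREBF2 measured 291, 266 and 295 CPM in DMSO and 202, 227 and 222 CPM with ML141. All ML141 libraries were below all DMSO libraries, but by far less than for INSIG1. The fall was 1.31-fold (log2 -0.39, SE 0.08101, edgeR adjusted p = 0.00165). SCAP, the escort, measured 37.99, 36.998 and 40.97 CPM in DMSO and 43.4, 52.3 and 44.96 CPM with ML141, with every ML141 library above every DMSO library. Its log2 fold change was 0.28 (SE 0.107, edgeR adjusted p = 0.0436), a call that was lost with the DESeq2 Wald test (adjusted p = 0.0556), without any 1 of DMSO replicates 1, 2 and 3 (0.106, 0.161 and 0.0627), without ML141 replicate 2 (0.132) or 3 (0.0752) and without replicate number 2 (0.306) or 3 (0.112) in both groups.

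The 2 proteases that release SREBP2 did not pass the test without the block. MBTPS1, the site-1 protease, measured 155, 139 and 139 CPM in DMSO and 149.6, 163 and 152 CPM with ML141, overlapping ranges with a log2 fold change of 0.10 (95% interval -0.077 to 0.28, edgeR adjusted p = 0.317). With library totals it was higher (log2 0.28, adjusted p = 0.0113). MBTPS2, the site-2 protease, measured 39.4, 34.4 and 31.2 CPM in DMSO and 49.1, 37.3 and 41.7 CPM with ML141, and DMSO replicate 1 reached into the ML141 range. Its log2 fold change was 0.29 (95% interval 0.0072 to 0.57, edgeR adjusted p = 0.0768). It passed the test with upper-quartile factors (log2 0.39, adjusted p = 0.0166), library totals (0.46, 0.00724) or no low-count filter (0.31, 0.0452), and without DMSO replicate 1 (0.38, 0.0490) or ML141 replicate 2 (0.38, 0.0233). With the replicate block MBTPS2 passed too (log2 0.28, adjusted p = 0.0228).

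**Figure D2:**
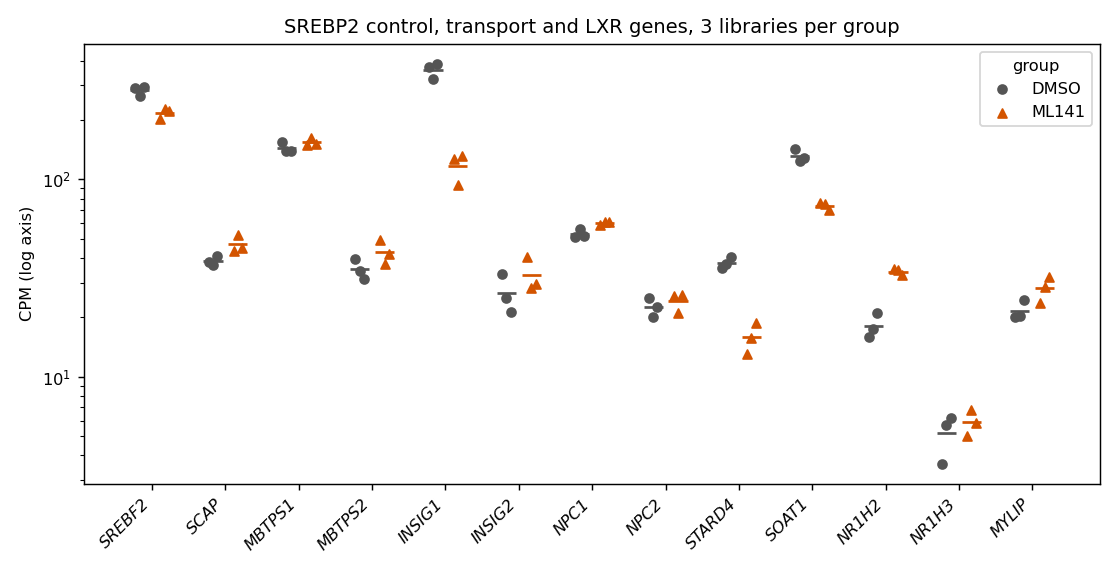
CPM on a log axis of the SREBP2 control, transport and LXR genes in each library, with circles for DMSO, triangles for ML141 and a line at the mean of 3. INSIG1, STARD4 and SOAT1 separate downwards with ML141 and NR1H2 separates upwards, from 15.8 to 21.0 CPM in DMSO to 32.7 to 35.0 CPM. By smaller amounts SREBF2 also separates downwards and SCAP and NPC1 upwards, NPC1 without passing the test.

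SREBP2 binds sterol regulatory elements, short promoter sequences that often stand near a CCAAT box, the site of the factor NF-Y. Promoter sequences came from RefSeq on GRCh38.p14, where 30 of the 33 genes had an entry, all but ACAT2, FDFT1 and SQLE. The 250 bases before each listed start were searched on both strands. The element was searched as TCACNCCAC and in the looser form CACNCCAC, which any match of the first also contains. The stricter form was found in 1 of 30 sterol genes, SREBF2, against 1.13% of the 8644 tested genes with an entry. The looser form was found in 4 of 30, SREBF2, INSIG1, IDI1 and SC5D, against 6.21%. These 4 are shown because they hold the match, and all 4 fell with ML141. Of all 33 sterol genes 20 fell, and of all genes tested 27.7%. Whether the match had a part in the falls was not tested. Capitals mark the element, on either strand, and CCAAT or its reverse ATTGG. For INSIG1 and SREBF2 the part of the window outside the gene's own annotated exons is given (chr7:155297628-155297775 and chr22:41832855-41833078, both plus strand); for IDI1 and SC5D, where the match lies before 1 of several listed starts and within annotated exons of the gene, 30 bases around it are given (chr10:1048989-1049018, minus strand, and chr11:121292773-121292802, plus strand).
SREBF2: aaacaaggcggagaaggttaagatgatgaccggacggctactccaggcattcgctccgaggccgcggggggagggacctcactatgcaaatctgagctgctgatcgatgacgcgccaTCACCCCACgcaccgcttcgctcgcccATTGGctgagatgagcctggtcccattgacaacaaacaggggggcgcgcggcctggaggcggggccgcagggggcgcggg
INSIG1: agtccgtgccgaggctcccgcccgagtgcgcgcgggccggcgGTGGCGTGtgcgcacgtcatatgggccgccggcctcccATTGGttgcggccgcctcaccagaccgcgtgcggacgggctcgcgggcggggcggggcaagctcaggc
IDI1: CCAATTGGccgggcgatGTGGCGTGgactg
SC5D: tttgcagagcaGTGGCGTGcggagcggcgg
The looser match begins 132 bases before the start in SREBF2, 208 in INSIG1, 115 in IDI1 and 68 in SC5D, on the plus strand relative to the gene in SREBF2 and on the opposite strand in the others. A match is a description of the letters only. Elements with other letters or outside the 250 bases were not searched, so a gene without a match is not shown to lack one. CCAAT was found in 21 of 30 sterol genes (against 42.3% of tested genes with an entry). GGGCGG, the box of the factor Sp1, was found in 26 of 30 (against 75.1%), and the E-box CACGTG in 3 of 30 (against 11.4%).

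In the mevalonate steps 6 of 8 genes fell and 1 rose, against 27.7% and 26.7% of all genes tested. The median log2 fold change of the 8 genes was -1.32. ACAT2 and HMGCS1, which carry out the first condensations, changed most. ACAT2, the cytosolic thiolase that joins acetyl-CoA units, measured 122, 128 and 134 CPM in DMSO and 23.3, 27.4 and 30.3 CPM with ML141. The highest ML141 library was far below the lowest DMSO library. The fall was 4.74-fold (log2 -2.24, SE 0.109, edgeR adjusted p = 6.75e-08), and 46 of all genes tested fell further. HMGCS1, the next enzyme, measured 486, 512 and 537 CPM in DMSO and 100.2, 92.98 and 98.9 CPM with ML141. Its ML141 libraries lay close together, and 32 genes fell further than its log2 -2.39 (SE 0.0806).

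Of the mevalonate kinases and the decarboxylase, MVK and MVD fell and PMVK was not past the test. MVK, mevalonate kinase, measured 14.7, 14.7 and 18.4 CPM in DMSO and 5.37, 6.56 and 4.81 CPM with ML141. All ML141 libraries were lower, by 2.85-fold (log2 -1.51, SE 0.175, edgeR adjusted p = 2.15e-05). PMVK, the phosphomevalonate kinase that acts directly after it, measured 14.002, 15.3 and 17.9 CPM in DMSO and 19.2, 19.8 and 19.5 CPM with ML141. Its ML141 libraries were all above the DMSO libraries, yet its log2 fold change of 0.30 (95% interval 0.016 to 0.59) was not past the test (edgeR adjusted p = 0.0696). PMVK was higher without DMSO replicate 3 (0.40, adjusted p = 0.0422), and also under upper-quartile scaling (0.40, adjusted p = 0.0271) and library totals (0.48, adjusted p = 0.0114). MVD, which makes isopentenyl diphosphate by decarboxylation, measured 13.2, 16.3 and 20.2 CPM in DMSO and 8.06, 11.4 and 8.77 CPM with ML141. The groups did not overlap, the DMSO libraries spread widely, and the fall was 1.76-fold (log2 -0.82, SE 0.189, edgeR adjusted p = 0.00306), a call lost when replicate number 3 was left out of both groups (log2 -0.60, adjusted p = 0.0834).

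Around farnesyl diphosphate, FDPS fell and GGPS1 rose. IDI1, the isomerase that supplies the starter unit, measured 258, 233 and 263 CPM in DMSO and 125, 99.1 and 121 CPM with ML141. Replicate 2 was the lowest library in each group, and the groups were well apart. IDI1 fell 2.18-fold (log2 -1.13, SE 0.0994, edgeR adjusted p = 2.87e-06). FDPS, farnesyl diphosphate synthase, measured 181, 193 and 198 CPM in DMSO and 61.4, 66.7 and 72.04 CPM with ML141, a fall of 2.86-fold in non-overlapping groups (log2 -1.52, SE 0.0877). GGPS1 extends farnesyl to geranylgeranyl diphosphate, the donor for prenylation of GTPases such as CDC42. GGPS1 measured 39.9, 38.4 and 34.6 CPM in DMSO and 71.2, 49.3 and 50.4 CPM with ML141. It was the 1 synthesis gene that rose: all ML141 libraries were above all DMSO libraries, with replicate 1 highest, and the rise was 1.51-fold (log2 0.60, SE 0.143, edgeR adjusted p = 0.00386). Per kilobase of exon, FDPS stood at 8.56, 9.48 and 10.8 times GGPS1 in DMSO and 1.63, 2.55 and 2.696 times with ML141. The log2 ratio changed by -2.10, lower in 3 of 3 ML141 libraries (2-sided exact permutation p = 0.1, n = 3 per group, the smallest possible). FDPS and GGPS1 were paired after their values were seen, so this p-value is a description and no conclusion is drawn from it.

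The library kit does not mark strand, and 16 of the 33 genes share annotated exon bases with another gene, 4 of them over 10%. ACAT2 shares 34.8% with SOD2, 45.8% with SOD2-OT1 and 12.5% with TCP1, HMGCS1 shares 19.9% with AC114947.2 and FDPS shares 28.9% with RUSC1-AS1, all on the opposite strand, and GGPS1 shares 11.3% with TBCE on its own strand, so these values are less certain. Processed copies add to this for FDPS, which has 8 named pseudogenes in GENCODE, and for CYP51A1, which has 3. Reads shared with such copies could have been placed on either. Of these copies only FDPSP2 has an entry in the deposited counts, with 0 counts in every library. Reads placed on the other copies are therefore not seen.

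From squalene to cholesterol 10 of 12 genes fell and 0 rose, against 27.7% and 26.7% of all genes tested. The median log2 fold change of the 12 genes was -1.24. FDFT1, squalene synthase, commits farnesyl diphosphate to sterols. It measured 425, 443 and 442 CPM in DMSO and 199.99, 178 and 189 CPM with ML141, with little spread in either group, and fell 2.31-fold (log2 -1.21, SE 0.0772, edgeR adjusted p = 2.98e-07). SQLE, squalene epoxidase, often the slow step of the branch, measured 226, 227 and 219.5 CPM in DMSO and 70.5, 65.3 and 75.8 CPM with ML141. The ML141 libraries were all far below the DMSO libraries, and SQLE fell by 1.67 on the log2 scale (SE 0.0837). LSS, the cyclase that closes the rings into lanosterol, was scarce, at 10.2, 12.95 and 12.4 CPM in DMSO and 2.59, 4.07 and 3.35 CPM with ML141. Its groups were nevertheless apart, and LSS had one of the largest falls of this branch at log2 -1.82 (SE 0.201, edgeR adjusted p = 1.54e-05).

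Lanosterol is then stripped of its methyl groups. CYP51A1, the lanosterol demethylase, measured 275, 241 and 249 CPM in DMSO and 108, 93.6 and 114 CPM with ML141, a fall of 2.42-fold without overlap (log2 -1.27, SE 0.0948, edgeR adjusted p = 8.48e-07). The next step, reduction at carbon 14, can be done by either of a pair of related proteins, TM7SF2 and LBR. TM7SF2 measured 21.3, 22.2 and 27.1 CPM in DMSO and 22.4, 28.5 and 26.6 CPM with ML141, in overlapping groups, and its log2 fold change was 0.13 (95% interval -0.16 to 0.43, edgeR adjusted p = 0.428). LBR, the lamin B receptor of the inner nuclear membrane, measured 599, 544 and 521 CPM in DMSO and 355, 313 and 346 CPM with ML141. It fell 1.64-fold without overlap (log2 -0.71, SE 0.0846, edgeR adjusted p = 2.64e-05). Per kilobase of exon, LBR was 12.4, 10.8 and 8.504 times as abundant as TM7SF2 in DMSO and 7.004, 4.86 and 5.76 times with ML141, so LBR remained the more abundant in each library. The log2 ratio changed by -0.85 (2-sided exact permutation p = 0.1, n = 3 per group, the smallest possible). LBR and TM7SF2 were also paired after their values were seen, so no conclusion is drawn from this p-value.

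MSMO1, NSDHL and HSD17B7 remove the methyl groups at carbon 4, and of these HSD17B7 was not past the test. MSMO1, the methyl oxidase, measured 134, 107 and 117 CPM in DMSO and 43.3, 37.8 and 49.7 CPM with ML141. NSDHL, the decarboxylating dehydrogenase, measured 29.7, 28.1 and 29.6 CPM in DMSO and 15.01, 12.4 and 13.3 CPM with ML141. Both were lower in every ML141 library, MSMO1 by 2.74-fold and NSDHL by 2.15-fold (log2 -1.45 and -1.10, SE 0.119 and 0.123). HSD17B7, the ketoreductase, measured 6.74, 10.4 and 10.03 CPM in DMSO and 7.596, 7.39 and 6.36 CPM with ML141. Its DMSO replicate 1 fell inside the ML141 range, and the log2 fold change of -0.36 (95% interval -0.78 to 0.06, edgeR adjusted p = 0.134) passed the test without DMSO replicate 1 (log2 -0.52, adjusted p = 0.0332) or without replicate number 1 in both groups (log2 -0.57, adjusted p = 0.0168). A near-identical transcribed copy, HSD17B7P2, has its own entry with 8, 14 and 16 counts in DMSO and 17, 25 and 25 with ML141, so reads could be split between the 2 (log2 0.46 for the copy, edgeR adjusted p = 0.207).

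The last steps move and reduce double bonds. EBP, the sterol isomerase, measured 56.4, 61.8 and 66.3 CPM in DMSO and 19.9, 23.5 and 25.4 CPM with ML141. The groups stood apart, and EBP fell 2.68-fold (log2 -1.42, SE 0.118, edgeR adjusted p = 1.81e-06). SC5D, the desaturase, measured 63.8, 58.2 and 58.04 CPM in DMSO and 51.9, 40.04 and 43.8 CPM with ML141, where ML141 replicate 1 came close to the DMSO range. Its fall was the smallest of the 16, 1.33-fold (log2 -0.41, SE 0.112, edgeR adjusted p = 0.00842), and was not past the test with library totals (adjusted p = 0.0676) or without replicate number 2 (0.0637) or 3 (0.0854) in both groups. DHCR7, the reductase that turns 7-dehydrocholesterol into cholesterol, measured 80.8, 85.2 and 106 CPM in DMSO and 21.95, 27.2 and 27.6 CPM with ML141. DMSO replicate 3 was its highest library and ML141 replicate 1 its lowest. DHCR7 fell 3.54-fold (log2 -1.82, SE 0.1305, edgeR adjusted p = 6.41e-07). Its fall and that of LSS, also at log2 -1.82, were the largest estimates of the branch and did not differ beyond their SE.

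**Figure D3:**
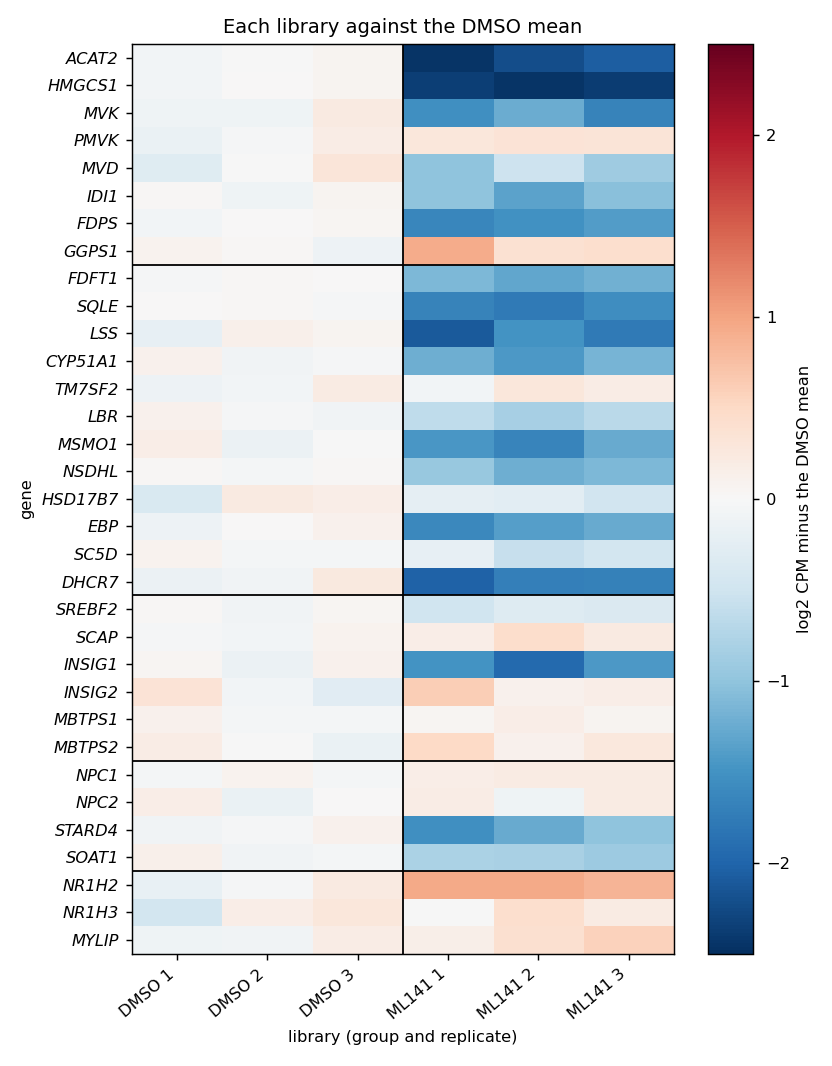
Log2 CPM minus the DMSO mean for each sterol gene (rows, in order of role, with lines between the role groups) in each library (columns), blue for lower and red for higher. The ML141 columns are blue in most synthesis rows and the median over the 20 enzymes was -1.18, -1.32 and -1.18 in ML141 replicates 1, 2 and 3.

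Over the 20 enzymes the median log2 difference from the DMSO mean was -1.18, -1.32 and -1.18 in ML141 replicates 1, 2 and 3, against -0.072, -0.016 and 0.07 in DMSO. Taken between libraries of the same replicate number it was -1.22, -1.27 and -1.21.

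Levels of different genes were compared per kilobase of exon, as means ± SD of 3 libraries. In DMSO the most abundant were HMGCS1 at 145 ± 7.202 CPM per kilobase and LBR at 142 ± 10.2, which did not differ beyond their spread, then INSIG1 at 117 ± 10.4 and FDPS at 116 ± 5.31, likewise within their spread. NR1H3 at 1.47 ± 0.386 and LSS at 2.21 ± 0.268 were the scarcest. With ML141 LBR was the most abundant at 86.8 ± 5.68, and FDFT1 at 41.1 ± 2.43, FDPS at 40.5 ± 3.23, SREBF2 at 40.4 ± 2.48 and INSIG1 at 38.1 ± 6.77 did not differ beyond their spread. HMGCS1 stood at 27.6 ± 1.097, a spread that overlapped those of IDI1 at 31.5 ± 3.83 and CYP51A1 at 31.5 ± 3.21. ACAT2 passed from 40.2 ± 2.03 to 8.49 ± 1.12 CPM per kilobase.

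Of the 4 transport and storage genes 2 fell and 2 were not past the test, where 27.7% of all genes tested fell. STARD4, a soluble carrier that moves cholesterol between membranes and an SREBP2 target, measured 35.7, 37.2 and 40.6 CPM in DMSO and 12.97, 15.8 and 18.8 CPM with ML141. All its ML141 libraries were lower, by 2.38-fold (log2 -1.25, SE 0.14001, edgeR adjusted p = 1.65e-05). SOAT1, which esterifies cholesterol for storage in droplets, measured 143, 124 and 128 CPM in DMSO and 75.7, 74.7 and 69.6 CPM with ML141, and fell 1.79-fold without overlap (log2 -0.84, SE 0.0884, edgeR adjusted p = 1.02e-05). NPC1 and NPC2 pass cholesterol taken up with lipoproteins out of the lysosome. NPC1 measured 51.3, 55.96 and 51.4 CPM in DMSO and 59.01, 61.01 and 60.8 CPM with ML141. Its ML141 libraries were all slightly higher, but the log2 fold change of 0.19 (95% interval -0.0083 to 0.38, edgeR adjusted p = 0.0959) missed the threshold. Library totals (0.36, adjusted p = 0.00449) and upper-quartile scaling (0.29, adjusted p = 0.0165) put NPC1 past it. NPC2 measured 25.2, 20.1 and 22.7 CPM in DMSO and 25.6, 21.04 and 26.05 CPM with ML141, in overlapping groups (log2 0.10, 95% interval -0.19 to 0.39, edgeR adjusted p = 0.553).

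The LXR receptors are activated by oxysterols and switch on sterol export. NR1H2, which encodes LXR beta, measured 15.8, 17.5 and 21.02 CPM in DMSO and 35.01, 34.7 and 32.7 CPM with ML141. The ML141 libraries lay close together and far above DMSO, and NR1H2 had the largest rise of the 33 genes, 1.87-fold (log2 0.91, SE 0.126, edgeR adjusted p = 8.87e-05). NR1H3, which encodes LXR alpha, was scarce, at 3.63, 5.7001 and 6.17 CPM in DMSO and 5.002, 6.79 and 5.85 CPM with ML141 in overlapping groups (log2 0.17, 95% interval -0.32 to 0.66, edgeR adjusted p = 0.538). Its sign turned without DMSO replicate 1 (log2 -0.012). MYLIP, the LXR-induced ubiquitin ligase that removes lipoprotein receptors from the surface, measured 19.97, 20.3 and 24.6 CPM in DMSO and 23.7, 28.4 and 31.98 CPM with ML141. DMSO replicate 3 exceeded ML141 replicate 1, and the rise was 1.29-fold (log2 0.37, SE 0.1404, edgeR adjusted p = 0.0405). The MYLIP call was lost without DMSO replicate 1 (adjusted p = 0.124) or 2 (0.148) and without ML141 replicate 2 (0.0727) or 3 (0.192), and without replicate number 2 (0.199) or 3 (0.132) in both groups.

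**Figure D4:**
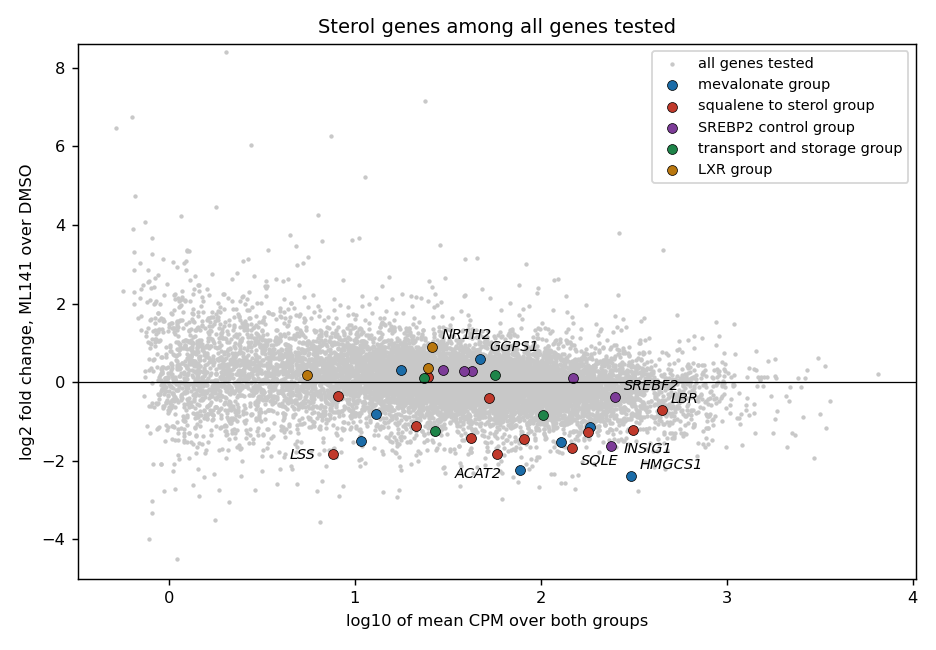
Log2 fold change against log10 of mean CPM for all 11454 genes tested (grey) with the sterol genes in colour by role. HMGCS1, ACAT2 and INSIG1 lie at the lower edge of the grey cloud at their level, and the control, transport and LXR genes lie mostly near 0, NR1H2 being highest at 0.91.

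Of 65 tested genes in 6 further lists around the pathway 25 fell and 14 rose, with a median log2 fold change of -0.028. These counts are to be read against 27.7% lower and 26.7% higher over all genes tested. With library totals 19 fell and 26 rose, and with upper-quartile factors 24 and 21. For all 11454 genes tested these scalings gave 2302 lower and 4494 higher, and 2611 lower and 3843 higher. Against a minimum fold change of 1.5, 10 of the 65 fell and 1 rose, where 998 of all genes tested fell and 813 rose. Among the genes named below, FNTA, VCP, SEC13, SAR1A, SEC24D, SEC24C, OSBPL8, LIPA, ABCA1 and RXRA then lost their call. The other changed genes named from these lists kept theirs. The list nearest to the enzymes, their electron donors and accessory proteins, had 6 of 8 genes lower and 0 higher, with a median of -0.64. TMEM97, the sigma-2 receptor that binds NPC1 and is an SREBP2 target, fell from 216, 193 and 197 CPM in DMSO to 53.5, 62.3 and 58.5 CPM with ML141 (log2 -1.80, SE 0.0899). CYB5B, a cytochrome b5, fell by 1.02 on the log2 scale (SE 0.0783); 55.6% of its exon length also belongs to AC026464.2 on the same strand. TMEM97 shares 11.9% of its exon bases with IFT20 on the opposite strand.

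Among 18 genes that use isoprenoids 8 fell and 3 rose (5 and 6 with library totals), against 27.7% and 26.7% of all genes tested. The list median was -0.082. PDSS1, which builds the ubiquinone tail, fell from 49.9, 55.7 and 51.2 to 13.8, 16.9 and 17.2 CPM, with no overlap (log2 -1.71, SE 0.118; 12.7% of exon bases shared with ABI1 on the opposite strand). ICMT, which methylates prenylated proteins, CDC42 among them, fell from 292, 267 and 287 to 128, 132 and 132 CPM, or 2.16-fold (SE of the log2 value 0.0755, edgeR adjusted p = 4.58e-07). FNTA, the shared alpha subunit of the farnesyl and geranylgeranyl transferases, was at a log2 fold change of 0.30 (edgeR adjusted p = 0.0406), and it shares 22.3% of exon bases with AC110275.1 on its own strand. The FNTA call was lost with limma-voom (adjusted p = 0.0530) and without DMSO replicate 1, 2 or 3 (0.0578, 0.140 and 0.122) or ML141 replicate 1 (0.124) or 3 (0.0853), and without replicate number 1 (0.0625) or 3 (0.191).

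Of 10 tested ubiquitin ligases and partners that degrade sterol enzymes and INSIG 5 fell and 1 rose, with a median of -0.25. The shares over all genes tested were 27.7% lower and 26.7% higher. With library totals or upper-quartile factors 4 of these 10 rose. VCP, the ATPase that extracts ubiquitinated proteins from the membrane, fell from 471, 512 and 473 to 334, 315 and 319 CPM and its cofactor UFD1L fell by 0.87 on the log2 scale (SE 0.0901; 10.8% of exon bases shared with AC000068.1 on the opposite strand). In the COPII coat, which carries SCAP from the endoplasmic reticulum, 3 of 10 fell and 2 rose, near the shares over all genes tested (27.7% and 26.7%), and 1 fell and 5 rose with library totals. SEC13 and SAR1A were at -0.50 and -0.30 (SE 0.0834 and 0.0823), the latter not past the test with library totals (adjusted p = 0.143) or without replicate number 2 (0.0551) or 3 (0.0727), and the cargo-binding SEC24D and SEC24C were at 0.52 and 0.30 (SE 0.104 and 0.0759), not past the test without replicate number 3 (0.0543 and 0.0713). SEC24C shares 42.6% of exon bases with AC022400.8 on the opposite strand.

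Sterol transfer and ester turnover had more rises than falls, 6 against 1 of 14 tested genes, with a median of 0.14. The shares over all genes tested were 26.7% higher and 27.7% lower. With library totals the list had 9 rises against 0 falls. All genes tested then had 4494 rises against 2302 falls. OSBPL2, an oxysterol-binding lipid transfer protein, rose from 28.7, 32.3 and 29.3 to 62.1, 55.4 and 58.6 CPM, or 1.95-fold (SE of the log2 value 0.101, edgeR adjusted p = 1.06e-05). LIPA, the lysosomal acid lipase that frees cholesterol from lipoprotein esters, rose from 77.8, 66.2 and 71.8 to 118, 90.3 and 113 CPM (log2 0.57, SE 0.112). OSBPL8 was at -0.39 (SE 0.101), a fall not past the test with library totals (adjusted p = 0.0597) or without replicate number 2 (0.0529) or 3 (0.0942). SOAT2, the other esterifying enzyme, had 0 counts in all 6 libraries, where 3 counts would be 0.226 to 0.389 CPM. Of the oxysterol and LXR list 5 of 11 genes were tested, 2 higher and 2 lower. The exporter ABCA1 rose from 14.002, 13.1 and 14.7 to 31.5, 20.6 and 26.4 CPM and RXRA, the partner of LXR, from 30.3, 27.9 and 32.4 to 39.2, 53.5 and 47.1 CPM. Their log2 fold changes were 0.91 and 0.63 (SE 0.161 and 0.127, edgeR adjusted p = 0.000538 and 0.00136). Against a minimum fold change of 1.5 the edgeR adjusted p-values became 0.0564 and 0.567. SREBF1, which encodes SREBP1 and is an LXR target, fell from 51.7, 62.7 and 77.8 to 20.8, 36.9 and 31.7 CPM (log2 -1.10, SE 0.192, edgeR adjusted p = 0.000475), and LPCAT3, another LXR target, fell by 0.86 (SE 0.107), with 66.4% of exon bases shared with EMG1 on the opposite strand.

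**Figure D5:**
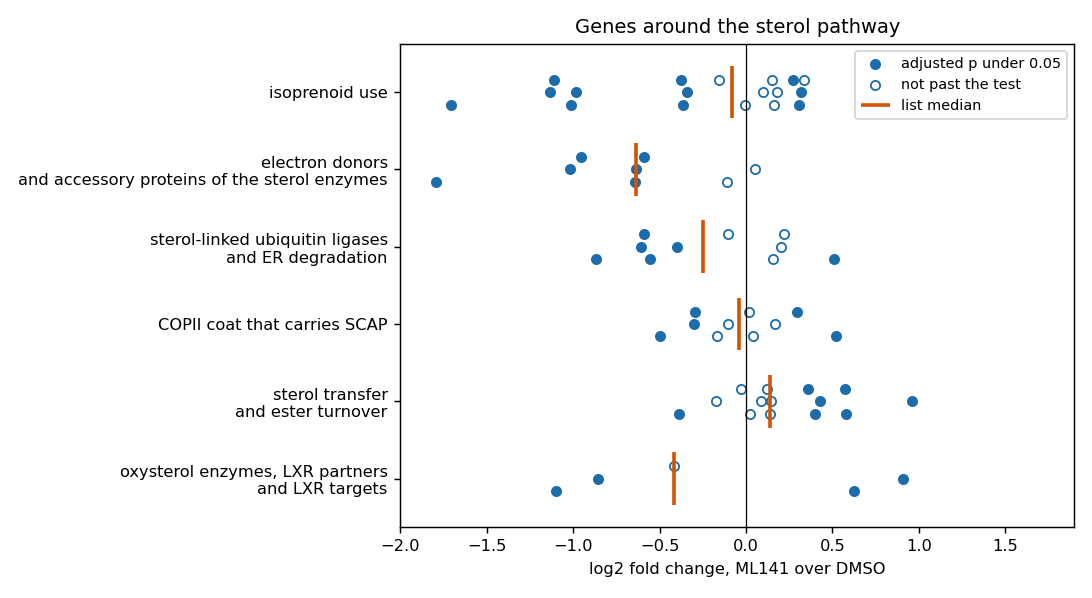
Log2 fold change, ML141 over DMSO, of the tested genes in 6 further lists around the sterol pathway, filled where the adjusted p was under 0.05, with an orange line at each list's median. The electron donors and accessory proteins lie mostly to the left of 0, down to TMEM97 at -1.80, while sterol transfer and ester turnover extends to the right, up to OSBPL2 at 0.96.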

How the data were processed

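RNA from 6 REH cultures, 3 per group, was sequenced from TruSeq RNA v2 libraries, a kit that selects poly(A) RNA and does not mark strand. The deposited table holds whole-number read counts per gene, which were used for all results. Further columns of the same deposited table hold a score per gene and library, the authors' counts divided by a size factor and rounded, judged from the values, and were used only to check the counts. The submitters' processing notes name bcl2fastq 2.19, Trimmomatic, Bowtie2, Picard, featureCounts, DESeq2 and hg38; no source used here gives their roles or settings.

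Genes passing edgeR's filterByExpr (minimum count 10, minimum total 15) were tested with edgeR 4.0.16 (R 4.3.3), TMM factors, group as the only term and the quasi-likelihood test, adjusted by Benjamini-Hochberg over 11454 genes. The SE is the log2 fold change over the square root of F. CPM values are counts over the TMM-scaled library size. Alternatives used limma 3.58.1 (voom), DESeq2 1.42.0, other scalings and filters, a minimum fold change, the replicate number as a block and each library left out; a lone pair of libraries was assumed to vary like the rest. The fit was tested on simulated data with 200 changed genes, equally many up and down. In the data 54.4% of genes tested changed, so the simulation does not show how the fit performs there. Pairs of libraries within a group differed by more than sampling noise (chi-square per degree of freedom 2.97 to 19.6), so each counted as 1 replicate, and p-values measure the spread between these libraries. The labels' library names share an ending between same-numbered DMSO and ML141 libraries, so the numbers were taken to mark the 3 experiments; deviations of same-numbered libraries correlated at 0.374, 0.085 and 0.178.

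Values are given for all 33 sterol genes; from each further list the most significant genes in each direction, up to 2, are named. The sterol genes and lists were chosen with earlier results of these data known, and the FDPS to GGPS1 and LBR to TM7SF2 ratios after their values were seen. Positions, exon lengths and shared exon bases came from GENCODE 29 on GRCh38 and promoters from RefSeq. MARCH6 is not analysed here. A few genes of the further lists that this rule would name are not reported here.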

Additional observations from a re-analysis of the deposited data

How the results depend on the processing

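Of 594 values of single sterol genes over 18 alternatives, 551 kept direction and side of the threshold, 25 lost the call, 17 gained it and 1 turned sign, and 19 genes kept both under all 18. The one turned value was NR1H3 at -0.012 without DMSO replicate 1 (0.17 with all libraries, and -0.012 to 0.33 over all libraries left out). With a minimum fold change of 1.5, 813 genes were higher and 998 lower, with 1 sterol gene and 0 synthesis enzymes higher. Higher sterol genes numbered 7 with upper-quartile factors and 9 with library totals, and higher synthesis enzymes 2 with each. The medians with these scalings, in that order, were -1.22 and -1.15 for the mevalonate genes, -1.14 and -1.07 for squalene to sterol and for both synthesis groups, 0.29 and 0.36 for SREBP2 control, and -0.27 and -0.20 for transport. The control median was 0.21 with no low-count filter and 0.205 with a stricter one. Leaving out libraries gave 1920 to 3195 genes higher (1920 without replicate number 3) and 2241 to 3372 lower, 2 to 4 sterol genes and 1 to 2 synthesis enzymes higher, and medians of -1.35 to -1.21 for the mevalonate genes and 0.10 to 0.22 for control. For these changes the cause was not tested. With a replicate block 3441 genes were higher and 3538 lower, and 6 and 20 sterol genes, INSIG2 (adjusted p = 0.0253) and MBTPS2 (0.0228) being added; the block changed no other call among the genes named. DMSO replicate 3 correlated better with ML141 replicate 2 (0.291) than with its own number.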
